A study of Mus musculus with 8 samples.

Results

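The 6 kidneys that went through ischaemia and reperfusion were set together against the 2 kidneys of sham-operated mice, which makes up all 8 samples of the series. The injured kidneys were chosen by their labels alone: IRI 30 and IRI 34, mimic 6 and mimic 7, and control-miRNA 1 and control-miRNA 5, each named here by its group and the number in its title. The comparison asks which genes differed from sham in every injured kidney, whatever had been injected beforehand. All 6 mice had lost the right kidney by nephrectomy, and blood flow to the left one was stopped for 45 min and restored. Sham 1 and sham 4 had only a midline incision, so the clamping and the loss of the other kidney cannot be told apart here, and injury below means both. The IRI mice are described with no injection, while the mimic and control-miRNA mice had received 5 nmol of a small RNA, a miR-5100 mimic or a control miRNA, in 200 µl through the tail vein 2 days before the operation. Nanoparticles of polyethylenimine, which binds RNA through its positive charge, served as the carrier at an N/P ratio of 6. The series text also has a general sentence that all models were injected, so an injection of the IRI and sham mice cannot be settled. All left kidneys were taken 24 h after the operation, and mouse strain, sex and age are not given in the sources used here.

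RNA from 30 mg of each kidney was hybridised to a 1-colour Agilent array. A level below is the log2 of a probe's processed signal minus the log2 of the 75th percentile signal of that array, so that 0 is that percentile, and levels are compared between kidneys for the same probe and never between genes. A difference is the mean of the 6 injured kidneys minus the mean of the 2 sham kidneys on the log2 scale, given with its moderated standard error from limma (n = 6 and 2). A gene is said to have risen or fallen where its limma p, adjusted by Benjamini-Hochberg over the 21264 genes tested, was under 0.05. The groups are said not to overlap where all 6 injured values lay on 1 side of both sham values. Each value is a bulk measurement of whole tissue, in which fewer cells of a type and less RNA per cell cannot be told apart. Each title gives a group and a number, and kidneys were treated as separate animals. Sham 1 and control-miRNA 1 carry the same number, but each is a left kidney, of which a mouse has only 1. The small number of kidneys limits the precision of every value.

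When renal blood flow stops and returns, the proximal tubule, which reabsorbs most of the filtrate and depends on mitochondrial oxidation, takes the main damage. Surviving tubule cells are known to lose their brush border and transport proteins, to make injury proteins that are absent from the healthy tubule, to release chemokines that draw in leukocytes, and to spread and divide in order to cover the denuded basement membrane. The named genes of kidney tissue were present in every sample: the thick ascending limb protein uromodulin (Umod), the proximal phosphate transporter Slc34a1 and the collecting duct water channel Aqp2 were well above background on all 8 arrays. Between 53.2% and 58.8% of an array's 59305 non-control spots passed that limit. The 75th percentile signal of sham arrays was 408 and 476, that of injured ones 242 to 600, with mimic 7 the dimmest.

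The injured kidneys differed from sham in about as many genes that were higher as genes that were lower. Of 21264 genes 3603 (16.9%) passed the test, of which 1921 (9.03%) were higher and 1682 (7.91%) lower in the injured kidneys. The median difference over all genes was -0.01. Fitted differences of at least 4-fold were found in 422 genes that rose and 345 that fell, of at least 16-fold in 61 and 28, and of at least 64-fold in 11 and 0. The groups did not overlap in 7567 genes (35.6%; 17.9% higher and 17.7% lower), and 3598 of the 3603 called genes were among them. On the low side of detection, 124 genes were well above background on no sham array and on all 6 injured arrays, and 149 on both sham arrays and on no injured array. The count of called genes rested on both sham kidneys, since it was 853 without sham 1 and 836 without sham 4, and 671 genes were called in each of the 8 fits that left out 1 kidney. It was 5768 without mimic 7.

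The 12 genes with the widest gap above sham were led by Krt20 and Havcr1. Krt20, an intermediate filament keratin of the gut and urothelium, had a level of -4.26 in sham 1 and -4.22 in sham 4. In the injured kidneys it lay at 4.41 in the lowest, 5.97 at the median and 6.40 in the highest. The lowest of these, mimic 7, was still 8.63 above the nearer sham kidney, and the difference of 10.01 ± 0.46 corresponds to a 1034-fold rise (adjusted p = 3.175e-05). Krt20 was well above background on both sham arrays, but its signal there was low, so the size of this ratio is uncertain. Havcr1 encodes KIM-1, a receptor with which tubule cells take up dead neighbours, and it was not well above background on either sham array. Its injured levels ran from 2.97 in mimic 7 through a median of 4.30 to 4.56 in IRI 34, so that it was at least 411-fold higher after injury (adjusted p = 3.175e-05). A bound of this kind sets the injured mean against the lowest signal that counts as well above background on the sham arrays.

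Sprr2f and Sprr1a encode small proline-rich proteins that are crosslinked under the surface of stratified epithelia. Sprr2f was not well above background in sham and was at least 134-fold higher after injury, with injured levels of 0.54 in mimic 7, a median of 2.68 and 3.24 in IRI 30 (adjusted p = 0.000177). Sprr1a stood at -2.26 and -2.19 in sham and between 2.79 and 4.26 in injured kidneys, with a median of 3.42, a rise of 5.61 ± 0.36 (adjusted p = 0.000116). No injured value of either gene came near a sham value.

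Secreted proteins made up another share of the 12. Lcn2, which encodes the iron-siderophore binding protein NGAL, rose from -0.22 and -0.57 in sham to 5.85, 7.36 and 7.77 (lowest, median and highest injured kidney), a difference of 7.55 ± 0.44 (adjusted p = 8.86e-05). Timp1, an inhibitor of matrix metalloproteinases, rose from -2.08 and -1.66 to 3.04, 3.47 and 3.84, a difference of 5.36 ± 0.23 (adjusted p = 3.175e-05). For both genes all injured kidneys stood far above sham, and for Lcn2 mimic 7 was lower than the other 5. Slpi, a leukocyte protease inhibitor, was measured with a probe not well above background in sham and was at least 153-fold higher on it (adjusted p = 6.49e-05), although another of its probes gave a difference of 0.06. Vgf, a secreted neuropeptide precursor, had injured levels of 0.18 in mimic 7 and 0.19 in control-miRNA 5 and of 2.80 to 3.36 in the other 4. Its probe was not well above background on either sham array, and Vgf was at least 108-fold higher on it (adjusted p = 0.000667), while another probe gave a difference of 1.53.

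Further genes of the 12 were a cytokine, a transcription factor and a filamin. Il1f6 encodes interleukin 36 alpha and was at least 26.6-fold higher after injury (adjusted p = 0.00156), at 1.40 and 1.91 in IRI kidneys and at -1.21 to 0.32 in the kidneys of injected mice. Fosl1, the AP-1 subunit FRA-1, was below background in sham and at least 12.8-fold higher (adjusted p = 4.03e-05), with all 6 injured kidneys between -1.48 and -0.60. Flnc, an actin crosslinker of muscle, rose from -3.61 and -3.74 to between 1.43 and 2.34 (5.70 ± 0.25, adjusted p = 3.175e-05), and its probes gave differences from 2.15 to 5.70.

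The 12 genes with the widest gap below sham held several enzymes and transporters. Car5a, the mitochondrial carbonic anhydrase, lay at -0.64 and -0.58 in sham, was well above background on no injured array, and was at least 15.8-fold lower there (adjusted p = 0.000204). Slc7a13, an apical transporter of the straight proximal tubule, had levels of 4.64 and 4.78 in sham and of -1.39, -0.41 and 0.49 in the lowest, median and highest injured kidney, a difference of -5.13 ± 0.49 (adjusted p = 0.000493). The lowest was IRI 30 and the highest mimic 7, and even mimic 7 stood far under sham. Inmt, an indolethylamine methyltransferase, stood at 6.96 and 7.24 in sham and fell to 1.71, 2.24 and 3.21 (-4.69 ± 0.46, adjusted p = 0.000511). Mep1b, a subunit of the brush border protease meprin, was at 1.63 in both sham kidneys and at -5.53, -3.86 and -2.20 after injury (-5.48 ± 0.88, adjusted p = 0.00423). It was well above background on 3 of 6 injured arrays, so the lower of these values are not firmly measured.

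Gys2, the glycogen synthase of liver, fell by 4.20 ± 0.51 (adjusted p = 0.00129), from 2.19 and 2.29 in sham to a median of -2.18. Akr1c14, a hydroxysteroid dehydrogenase, fell by 4.37 ± 0.32 (adjusted p = 0.000203) and Pde6a, a phosphodiesterase subunit known from photoreceptors, by 4.92 ± 0.35 (adjusted p = 0.000177), with a signal well above background on 4 of 6 injured arrays. For Clec2h, a C-type lectin, the injured kidneys lay between -1.81 and -0.96 against 3.16 and 3.30 in sham (-4.61 ± 0.25, adjusted p = 6.49e-05). Fam151a was as even, at -1.31 to -0.53 after injury against 3.46 and 3.42 (-4.30 ± 0.23, adjusted p = 6.49e-05). Ttc36, Adgrg4, an adhesion G protein-coupled receptor, and Smcp, a protein of the sperm mitochondrial capsule, completed the 12, with fitted differences of -4.15, -5.70 and -4.61. Of these Adgrg4 was well above background on 1 of 6 injured arrays and Smcp on 3, so that the size of their fall is uncertain.

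**Figure D1:**
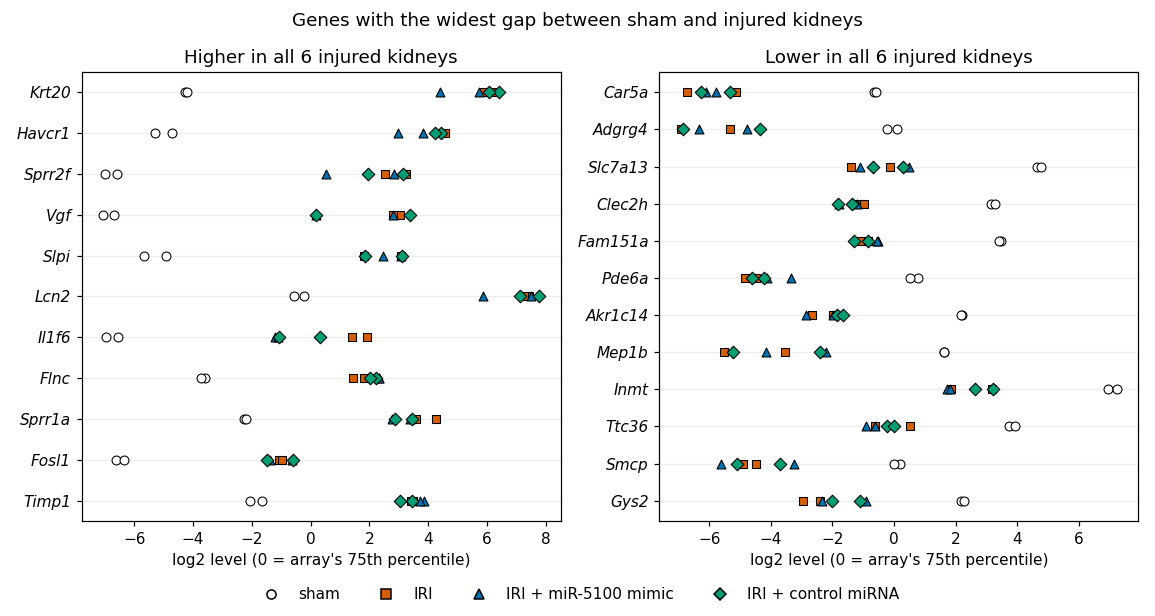
Log2 level of 11 of the 12 genes with the widest gap above sham (left) and the 12 with the widest gap below it (right), 1 point per kidney, with 0 the array's 75th percentile signal. Open circles are the 2 sham kidneys and filled symbols the 6 injured ones. A reader should see an empty stretch between the open and the filled points in every row, 8.63 wide for Krt20, and that mimic 7 is the injured kidney nearest to sham for Krt20 (4.41) and Lcn2 (5.85).

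The promoters of 4 genes are printed to show the letters behind the motif counts that follow. They are the small proline-rich genes that rose, the chemokine gene Cxcl1, and Smcp as a gene that fell, and they were chosen after their values and motifs were seen. Each run is the 250 bases before the RefSeq start site in GRCm38.p6, 5′ to 3′ on the gene's strand, and is the first part of the RefSeq window whose coordinates are given. Capitals mark matches to the motifs searched. In Sprr2f (chr3:92364937-92365236, plus strand) they are an AP-1 match that starts 197 bases before the start site, an antioxidant response match at 137 and a TATA match at 29. In Sprr1a (chr3:92485832-92486131, minus strand) they are 2 AP-1 matches at 146 and 116, the former overlapping an antioxidant response match, and a TATA match at 43. In Cxcl1 (chr5:90890995-90891294, plus strand) they are long NF-kB matches at 89 and 71. In Smcp (chr3:92589024-92589323, minus strand) they are a STAT match at 211 and an HNF4 match at 83. Sprr2f, Sprr1a and Smcp lie in the same stretch of chromosome 3.
Sprr2f: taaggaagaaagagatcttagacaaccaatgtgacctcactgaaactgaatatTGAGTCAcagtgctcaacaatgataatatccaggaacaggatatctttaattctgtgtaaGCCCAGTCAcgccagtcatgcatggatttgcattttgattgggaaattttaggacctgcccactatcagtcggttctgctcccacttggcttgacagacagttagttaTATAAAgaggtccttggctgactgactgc
Sprr1a: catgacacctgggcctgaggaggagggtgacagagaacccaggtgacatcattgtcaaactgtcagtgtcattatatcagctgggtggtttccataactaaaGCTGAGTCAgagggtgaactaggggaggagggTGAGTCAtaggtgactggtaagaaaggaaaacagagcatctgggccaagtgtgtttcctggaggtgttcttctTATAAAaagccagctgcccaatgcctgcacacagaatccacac
Cxcl1: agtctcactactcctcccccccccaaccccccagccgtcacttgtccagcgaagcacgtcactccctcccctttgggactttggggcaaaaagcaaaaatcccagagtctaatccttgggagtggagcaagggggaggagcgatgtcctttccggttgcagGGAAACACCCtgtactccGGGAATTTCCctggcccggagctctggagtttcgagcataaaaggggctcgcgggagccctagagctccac
Smcp: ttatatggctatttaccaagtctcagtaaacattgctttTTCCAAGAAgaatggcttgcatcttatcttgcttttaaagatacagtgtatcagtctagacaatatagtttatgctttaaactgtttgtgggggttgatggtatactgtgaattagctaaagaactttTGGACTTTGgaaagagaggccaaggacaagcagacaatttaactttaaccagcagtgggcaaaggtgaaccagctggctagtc

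Motifs were searched on both strands of RefSeq promoter windows, and a match is a description of the letters, not a bound site. The AP-1 motif TGANTCA stood in 12.4% of the 331 windows of genes that rose at least 4-fold without overlap, in 7.3% of the 315 windows of genes that fell as much, in 5.76% of the windows of all genes tested and in 7.81% of all 32851 windows. The NF-kB motif GGGNNTTCC stood in 5.44%, 7.62%, 6.94% and 5.82% of these sets in the same order, while its long form, which has another T after the N letters, stood in 5.14%, 1.27%, 1.67% and 1.63%. The HNF4 motif CAAAGTCCA was found in 0.604%, 2.22%, 0.469% and 0.475%, that is in 2 windows of genes that rose and 7 of genes that fell. The antioxidant response motif TGACNNNGC was found in 14.5% and 11.1% of windows of genes that rose and fell, against 13.8% of those of all genes tested, and the STAT motif TTCNNNGAA in 7.55% and 6.98% against 7.08%. The heat shock motif was found in 0.302% and 0.952% against 0.494%. TATAAA stood in 16.3% and 16.5% against 8.91%, at about the same share in genes that rose and in genes that fell. No test was made of these shares, and windows of genes with several start sites overlap.

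Most genes of the tubular injury list rose. Of 30 genes on a list of tubular injury markers all were measured, 27 rose (against 9.03% of all genes) and 0 fell, with a median difference of 3.23 against -0.01 over all genes, and in all 30 the groups did not overlap (17.9% of all genes lay wholly above sham). Those that missed the test were Krt7 (0.73), Vim (1.20) and Cd24a (1.52). Spp1, which encodes the adhesive phosphoprotein osteopontin, was already bright in sham, at 5.77 and 6.03, and stood at 9.34, 9.56 and 9.62 in the lowest, median and highest injured kidney (3.61 ± 0.16, adjusted p = 3.175e-05). Sox9, a transcription factor of regenerating tubule, rose by 4.96, and the calcium-binding S100a6 by 4.05. The simple epithelial keratins Krt8, Krt18 and Krt19 rose by 2.31, 2.59 and 3.22, the cell surface hyaluronan receptor Cd44 by 2.47, and Vcam1, an adhesion molecule of injured proximal tubule, by 1.52. Leaving out a kidney, or another scaling or filter, left between 19 and 30 of the 30 called.

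Most genes of the proximal tubule lists fell. Among 38 transporters and endocytic receptors 24 fell (7.91% of all genes fell) and 2 rose, with a median of -1.38, and 29 lay wholly below sham (17.7% of all genes). Lrp2, the endocytic receptor megalin, had levels of 7.06 and 7.08 in sham and of 4.74, 5.07 and 5.25 in the injured kidneys (-2.01 ± 0.18, adjusted p = 0.000344), and its partner Cubn fell by 1.45. The phosphate transporter Slc34a1 went from 7.71 and 7.85 to 4.87, 5.26 and 5.78 (-2.52 ± 0.24, adjusted p = 0.000494) and the related Slc34a3 fell by 3.43. No injured kidney reached a sham value for either gene. Slc7a7, a basolateral amino acid exchanger, was even, with sham at 5.73 and 5.71 and all injured kidneys between 3.86 and 4.13 (-1.71 ± 0.14, adjusted p = 0.000305). The organic anion carrier Slc22a7 fell by 4.26, the neutral amino acid transporter Slc6a19 by 3.13, the glucose transporter Slc5a2 by 1.12 and the water channel Aqp1 by 2.12. Slc6a18, a relative of Slc6a19, rose by 1.28 and the efflux pump Abcc4 by 0.97, and Slc22a6, Slc5a1 and Slc2a2 did not pass the test, at -0.36, -0.31 and -0.54.

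Of 34 enzymes of the proximal tubule 23 fell and 2 rose, against 7.91% and 9.03% of all genes, with a median of -1.91. Ass1, the argininosuccinate synthase of renal arginine production, had 8.06 and 8.08 in sham and 5.11, 5.41 and 6.05 after injury (-2.62 ± 0.24, adjusted p = 0.000389). It was lower in all 6 kidneys than in either sham kidney, and control-miRNA 1 was the nearest to sham. Hao2, a peroxisomal hydroxyacid oxidase, fell by 3.36, Gatm, the first enzyme of creatine synthesis, by 3.1, and Cyp2e1 by 3.26. The enzymes that rose were Cyp24a1, which inactivates vitamin D (2.16), and Pck1, a gluconeogenic enzyme (1.30). The other gluconeogenic enzymes moved apart from Pck1: G6pc fell by 1.97 and Fbp1 missed the test at -2.30.

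For the later nephron segments the share over all genes, 7.91% lower and 9.03% higher, is the background. In the thick ascending limb 10 of 19 genes fell and 0 rose (median -0.97), among genes of distal convoluted or connecting tubule 5 of 16 and 0 (-0.63), among collecting duct principal cell genes 2 of 17 and 1 (-0.21), and among intercalated cell genes 5 of 16 and 0 (-0.82). Egf, made in the thick ascending limb, had levels of 6.01 and 6.62 in sham, 0.12 to 2.22 in 5 injured kidneys and 4.02 in mimic 7 (-4.66 ± 0.86, adjusted p = 0.00783). The cotransporter Slc12a1 of the same segment fell by 2.27, again with mimic 7 the nearest to sham, at 3.19 against 0.56 to 2.28 in the others. Umod, which that segment secretes, overlapped between the groups, with 7.57 and 7.85 in sham and 7.25, 7.65 and 8.03 in the injured kidneys (-0.07 ± 0.28, adjusted p = 0.919). Pvalb, a calcium buffer of the distal convoluted tubule, fell by 3.70 ± 0.49 (adjusted p = 0.00171), Kl, which encodes the FGF23 co-receptor klotho, by 2.26 ± 0.38 (adjusted p = 0.00539), and Calb1, the calcium-binding calbindin of the connecting tubule, by 1.57 ± 0.25 (adjusted p = 0.00397). Slc26a4, the chloride-bicarbonate exchanger pendrin of intercalated cells, fell by 1.14 ± 0.16 (adjusted p = 0.00243), and the water channel Aqp3 of principal cells by 1.16 ± 0.29 (adjusted p = 0.0256).

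Podocyte, endothelial and stromal genes are set here against the 16.9% of all genes that passed. Of 20 podocyte genes 1 rose (Cd2ap, an adaptor of the slit diaphragm, 0.89) and 1 fell (Col4a4, a chain of the glomerular basement membrane, -0.88), with a median of -0.61. The list's median in single kidneys ran from -0.96 in IRI 34 to 0.37 in mimic 7. Of 21 endothelial genes 0 passed limma's test after adjustment, 4 had an unadjusted p under 0.05, and their median of -0.15 turned positive with the slide column as a covariate. Of 21 measured genes of pericytes, fibroblasts and matrix 2 rose and 1 fell. Their median of 0.22 turned negative with probes well above background on all arrays and in IRI against sham alone. The slide row covariate gave the same difference as the latter. The matrix protein tenascin C (Tnc) was not well above background in sham and was at least 7.52-fold higher (adjusted p = 0.0063), with mimic 6 and mimic 7 at -0.31 and -0.94 and the other 4 between -2.54 and -2.18. Col1a1, a collagen I chain, rose by 2.37 ± 0.68 (adjusted p = 0.045), at 1.94 and 1.02 in IRI kidneys and at 2.65 to 4.11 in the kidneys of injected mice, and Fbln5, an elastic fibre protein, fell by 1.75 ± 0.29 (adjusted p = 0.00503).

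Of 28 transcription factors of the tubule 6 fell (7.91% of all genes fell) and 0 rose, with a median of -0.24. Klf15, a glucocorticoid-responsive regulator of amino acid metabolism, had 3.20 and 3.33 in sham and 0.73, 1.37 and 1.67 after injury (-2.02 ± 0.28, adjusted p = 0.00209). Maf fell by 1.37 ± 0.18 (adjusted p = 0.00168), and Nr3c1, the glucocorticoid receptor, by 0.74 ± 0.17 (adjusted p = 0.0195). The groups did not overlap for Hnf4a, the hepatocyte nuclear factor of the proximal tubule, but its difference was small and missed the test: 6.47 and 6.59 in sham and 5.69, 5.94 and 6.29 in injured kidneys (-0.57 ± 0.18, adjusted p = 0.0649). Pax8 and Pax2 differed by 0.52 and 0.05, neither past the test.

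**Figure D2:**
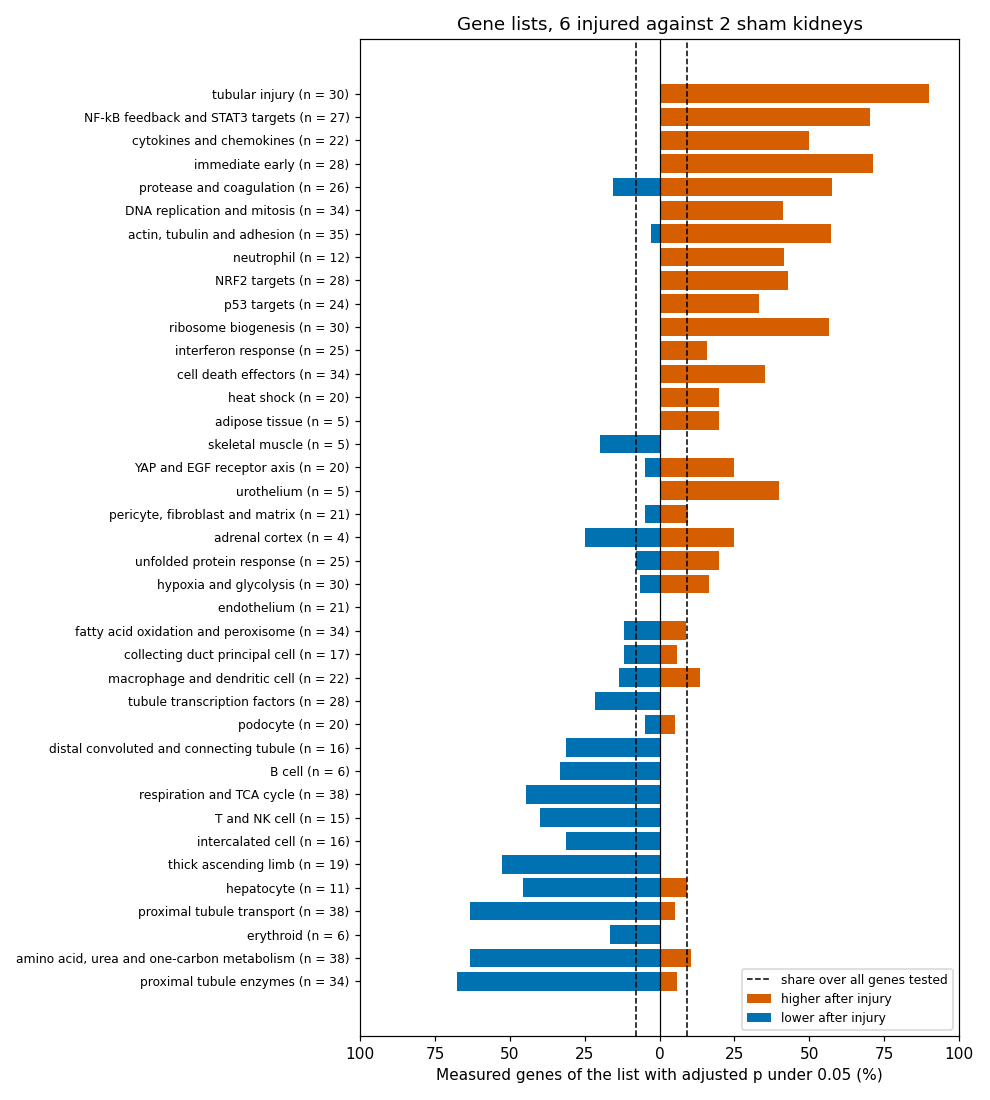
Share of the measured genes of each of 39 lists that were higher (right, orange) or lower (left, blue) in the 6 injured kidneys with an adjusted p under 0.05, ordered by the list's median difference, with the number measured after its name. Dashed lines mark the shares over all 21264 genes, 9.03% higher and 7.91% lower. A reader should see tubular injury genes at the top (27 of 30 higher), proximal tubule enzymes at the bottom (23 of 34 lower) and no bar for endothelium.

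Enzymes that handle amino acids, some of which are also on the proximal tubule lists, mostly fell. Of 38 genes of amino acid, urea and one-carbon metabolism 24 fell and 4 rose (median -1.55), against 7.91% and 9.03% of all genes. Bhmt, which remethylates homocysteine with betaine, fell by 3.98, Hpd of tyrosine breakdown by 3.96, Cbs of cysteine synthesis by 2.52, and Ivd, Mccc1 and Mccc2 of leucine breakdown by 1.75, 1.55 and 1.77. Asl, which follows Ass1 in arginine synthesis, went from 3.91 and 3.93 in sham to between 1.85 and 2.35 (-1.80 ± 0.17, adjusted p = 0.000477). The 4 that rose do other things: Arg2, the mitochondrial arginase that breaks arginine down, rose from -3.1 and -3.32 in sham to 0.17 in the lowest and 2.14 in the highest injured kidney (4.61 ± 0.44, adjusted p = 0.000494), while Mthfd2 of mitochondrial folate metabolism rose by 2.55 and Psat1 and Phgdh of serine synthesis by 2.14 and 1.56. For Arg2 mimic 7 was the kidney nearest to sham.

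Of 38 respiratory chain and TCA cycle genes 17 fell (7.91% of all genes fell) and 0 rose, with a median of -0.67. Wholly below sham lay 30 of them (17.7% of all genes). Pcx, pyruvate carboxylase, fell by 1.26 ± 0.23 (adjusted p = 0.00787) and Idh2, a mitochondrial isocitrate dehydrogenase, by 1.27 ± 0.24 (adjusted p = 0.00812). Mdh1, the cytosolic malate dehydrogenase, fell by 1.19 ± 0.23 (adjusted p = 0.00998), but its probes gave differences from -1.58 to -0.12. Complex I subunits such as Ndufs1 (-0.94) and Ndufv1 (-0.66) and the ATP synthase subunit Atp5a1 (-0.84) fell as well. Of 34 genes of fatty acid oxidation 4 fell and 3 rose, close to the shares over all genes (7.91% lower and 9.03% higher). Among those that fell was the medium-chain dehydrogenase Acadm (-1.62). Those that rose included Pdk4, which inhibits pyruvate dehydrogenase (3.57), and the fatty acid binding protein Fabp1 (2.18). The median of -0.20 turned positive without the mimic kidneys and in IRI against sham alone. The fit with the slide row as a covariate gave the same difference as IRI against sham alone. Of 30 genes of hypoxia and glycolysis 5 rose and 2 fell (median 0.09), against 9.03% and 7.91% of all genes. Hk2, an inducible hexokinase, was not well above background in sham and was at least 8.42-fold higher (adjusted p = 0.000445). The lactate exporter Slc16a3 rose by 2.15 ± 0.36 (adjusted p = 0.00538), whereas the hypoxia target Car9 fell by 1.42. Vegfa missed the test (-0.72 ± 0.22, adjusted p = 0.0554), with another of its probes at 0.12.

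Of 30 chemokines and cytokines 22 were measured, of which 11 rose (9.03% of all genes rose) and 0 fell. The median was 1.59, or 1.15 with the 6 genes that were not well above background in sham at their bounds. Cxcl1, a neutrophil chemokine, had levels of -3.18 and -3.62 in sham and of 1.47, 2.31 and 2.95 in injured kidneys (5.63 ± 0.44, adjusted p = 0.000218). Its promoter, printed above, holds both long NF-kB matches. Il1rn, the interleukin 1 receptor antagonist, was at least 6.75-fold higher (adjusted p = 0.000518). Csf1 and Il34 both encode ligands of the receptor Csf1r, which macrophages carry: Csf1 went from -1.19 and -1.15 to 0.87, 1.24 and 2.02 (2.55 ± 0.31, adjusted p = 0.00119) and Il34 from 1.84 and 1.23 to 3.53, 4.00 and 4.72 (2.49 ± 0.31, adjusted p = 0.00135). Csf1r itself fell by 1.27. Il6 was well above background in 4 of 6 injured kidneys and in no sham kidney, and was at least 2.22-fold higher (adjusted p = 0.0113). Tnf and Ccl2, a monocyte chemokine, missed the test, Tnf at -0.53 ± 0.25 (adjusted p = 0.189) with overlap and Ccl2 at 2.00 ± 0.64 (adjusted p = 0.0659) with injured levels from -1.71 in control-miRNA 5 to 0.98 in control-miRNA 1.

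Of 27 feedback genes and targets of NF-kB and STAT3, 19 rose (9.03% of all genes rose) and 0 fell (median 1.63). Socs3, which shuts off signalling by the gp130 cytokine receptor, rose from -1.67 and -1.31 to 1.63, 2.27 and 3.33 (3.84 ± 0.40, adjusted p = 0.000678), and Stat3 from 3.0 in both sham kidneys to between 4.22 and 4.72 (1.55 ± 0.17, adjusted p = 0.000831). Icam1, a leukocyte adhesion molecule, rose by 1.96 ± 0.21 and Cebpb by 1.94 ± 0.21 (adjusted p = 0.000769 each). The NF-kB subunits Relb and Nfkb2 rose by 2.03 and 2.01, the inhibitor-like Bcl3 by 2.41 and Nfkbia by 0.95, the complement component C3 by 3.06, and Tnfaip3 missed the test (0.51). Of 25 interferon-stimulated genes 4 rose (against 9.03% of all genes) and 0 fell (median 0.43). They were the RNA sensor Ddx58 (1.38 ± 0.16, adjusted p = 0.000971), Oasl1 (1.87 ± 0.35, adjusted p = 0.00826), Bst2 (0.83) and Ifit2 (0.59), while Isg15 (0.81), Ifit1 (0.84) and Irf7 (0.99) missed the test.

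Immune cell lists are set here against the shares over all genes, 9.03% higher and 7.91% lower. Of 18 neutrophil genes 12 were measured, of which 5 rose and 0 fell. Their median was 0.95, or 0.77 with 4 genes at their bounds. S100a8, a chain of calprotectin, had -3.52 and -3.19 in sham and -0.33, 0.57 and 1.48 in injured kidneys (3.92 ± 0.45, adjusted p = 0.00103), S100a9 rose by 3.27 ± 0.41 (adjusted p = 0.0014), and the chemokine receptor Cxcr2 was at least 1.94-fold higher (adjusted p = 0.00541). Ly6g (0.58) and Csf3r (0.14) missed the test, and Mpo, Ngp, Ltf and Mmp9 were not among the genes tested. The summed linear level of the measured neutrophil genes, with the array's 75th percentile as the unit, was 47.5 and 53.3 in sham and 47.0 to 102 in injured kidneys. The sum adds different probes. In sham other, brighter members of the list set it, since S100a8, S100a9 and Cxcr2 stood below the 75th percentile there. Of 22 macrophage and dendritic cell genes 3 rose and 3 fell, not far from the shares over all genes. Their median of -0.24 turned positive with the slide column as a covariate. Cd68, a lysosomal glycoprotein, rose by 2.84 ± 0.26 (adjusted p = 0.000411) and Cd14, the endotoxin co-receptor that tubule cells also make, by 3.56 ± 0.37 (adjusted p = 0.000701). The MHC class II chains H2-Aa and H2-Eb1 fell by 1.76 ± 0.27 (adjusted p = 0.00365) and 1.62 ± 0.37 (adjusted p = 0.0197), and Adgre1, which encodes F4/80, missed the test at -0.62 ± 0.32 (adjusted p = 0.237). Of 15 T and NK cell genes 6 fell and of 6 B cell genes 2, with 0 higher in either. The sums of the T and NK cell genes were 7.75 and 10.3 in sham and 5.66 to 8.80 after injury, ranges that overlap. The T cell receptor component Cd3d fell by 1.53, Cd3g fell to a level well above background on only 1 of 6 injured arrays, and the cytotoxic granule gene Nkg7 fell by 2.63 ± 0.56 (adjusted p = 0.0141). Cd3e (-0.33) and Cd4 (-0.14) missed the test.

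Immediate early genes are mostly transcription factors that cells induce within minutes of a stimulus. Of 28 such genes 20 rose (9.03% of all genes rose) and 0 fell at 24 h (median 1.55). Fos had -2.49 and -3.25 in sham and -0.52, 0.22 and 0.51 after injury (3.0 ± 0.32, adjusted p = 0.000702), and Egr1 rose by 3.07, Myc by 2.99 and Jun by 1.91. Atf3, a stress-induced factor, was not well above background in sham and was at least 9.18-fold higher (adjusted p = 0.00132). Maff, a small MAF partner of NRF2 and AP-1, rose by 3.92 ± 0.41 (adjusted p = 0.000708), with mimic 7 the lowest of the injured kidneys. Dusp1, a phosphatase that ends MAP kinase signalling, did not share this, at -0.38, and missed the test.

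The stress lists that follow are set against the shares over all genes, 9.03% higher and 7.91% lower. Of 28 targets of NRF2, the regulator of antioxidant genes, 12 rose and 0 fell (median 0.85, or 0.81 with 1 gene at its bound). Hmox1, the haem oxygenase induced by haem and oxidants, had 2.20 and 1.85 in sham and 4.52, 5.48 and 5.75 in injured kidneys (3.34 ± 0.32, adjusted p = 0.000463), Cbr3, a carbonyl reductase, rose by 4.97 ± 0.50 (adjusted p = 0.000586) and Srxn1, which repairs peroxiredoxin, by 2.71 ± 0.31 (adjusted p = 0.00103). The glutamate-cysteine ligase subunits Gclc (0.58) and Gclm (0.24) missed the test. Of 24 p53 targets 8 rose and 0 fell (median 0.82, or 0.66 with 1 gene at its bound). Cdkn1a, the cell cycle inhibitor p21, had -2.49 and -2.59 in sham and 0.19 to 2.54 in injured kidneys (4.00 ± 0.51, adjusted p = 0.00145), and Trp53 itself missed the test (1.19 ± 0.40, adjusted p = 0.0756). Mdm2 (0.24) and Bax (0.41) missed it as well. Of 20 heat shock genes 4 rose, led by the small heat shock protein Hspb1, which went from 2.57 and 2.73 to between 5.46 and 6.33 (3.11 ± 0.25, adjusted p = 0.000232). Of 25 genes of the unfolded protein response 5 rose and 2 fell, the latter close to the share over all genes. Those that rose were the regulator Atf4 (0.80) and genes known as its targets, Trib3 (2.94 ± 0.41, adjusted p = 0.00242), Asns (2.70 ± 0.45, adjusted p = 0.00513), Chac1 (2.09) and Atf5 (2.27), while the ER chaperone Hspa5 differed by 0.10 and Ddit3 by 0.58, neither past the test. The median of this list, 0.10, turned negative with the slide column as a covariate.

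Cell death genes rose in part, 12 of 34 with 0 lower, against 9.03% higher over all genes. Their median was 0.41, or 0.40 with 1 gene at its bound. Mlkl and Ripk3, the pair that carries out necroptosis, rose by 3.52 ± 0.36 (adjusted p = 0.000646) and 1.94, Mlkl from -4.00 and -4.01 in sham to -1.30, -0.49 and 0.24. Bak1, which opens the mitochondrial outer membrane in apoptosis, rose by 1.92 ± 0.18 (adjusted p = 0.000453) and Tnfrsf12a, the TWEAK receptor, by 3.74 ± 0.41 (adjusted p = 0.000805). Casp8 (1.35) and Casp4 (1.04) rose. Casp9 (-0.27 ± 0.16, adjusted p = 0.318) and the ferroptosis guard Gpx4 (-0.42) missed the test.

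Of 34 measured genes of DNA replication and mitosis 27 lay wholly above sham (17.9% of all genes). Of the 34, 14 rose (9.03% of all genes rose) and 0 fell (median 1.32). Those that rose were of replication and the G1 to S transition: the helicase subunit Mcm3 went from -0.56 and -0.22 to 1.67, 2.32 and 2.93 (2.71 ± 0.34, adjusted p = 0.00135), Mcm2 rose by 1.88 ± 0.27 (adjusted p = 0.00268), and the cyclin Ccne1 by 2.64. Mitotic genes such as Mki67 (1.05), Top2a (2.00), Plk1 (1.68) and Cdk1 (-0.08) missed the test. The list's median was 2.47 above the sham mean in control-miRNA 1 and 0.77 to 1.65 in the other 5. In ribosome biogenesis 17 of 30 rose and 0 fell, by small amounts (median 0.67). Nolc1, a nucleolar chaperone, was very even, at 0.92 and 0.84 in sham and 1.93 to 2.10 after injury (1.16 ± 0.14, adjusted p = 0.00111). Of 35 genes of actin, tubulin and adhesion 20 rose and 1, the kidney cadherin Cdh16, fell (-0.66). The tubulins Tubb6 and Tubb2b rose by 2.97 ± 0.26 (adjusted p = 0.000347) and 2.91 ± 0.24 (adjusted p = 0.000291), and the actin crosslinker Actn1 by 2.37. The integrin Itga5, not well above background in sham, was at least 3.46-fold higher, while Actb missed the test (0.78).

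Ligands of the EGF receptor moved apart. Areg, amphiregulin, was not well above background in sham and was at least 5.89-fold higher after injury (adjusted p = 0.000777), with IRI 34 lowest at -3.68. Hbegf rose by 1.41, while Egf fell as given above and the receptor Egfr (0.15) did not pass the test. Of the 20 genes of the EGF receptor and YAP list 5 rose and 1 fell (median 0.30), against 9.03% and 7.91% of all genes. Those that rose included the YAP target Ccn1 (2.63 ± 0.49, adjusted p = 0.00789). Of 26 protease and coagulation genes 15 rose and 4 fell (median 1.36, or 1.23 with 3 genes at their bounds). Plaur, the urokinase receptor, went from -2.12 and -2.08 to 1.18, 1.68 and 1.82 (3.68 ± 0.20, adjusted p = 6.49e-05), and the metalloproteinase Mmp7, not well above background in sham, was at least 13.0-fold higher (adjusted p = 0.00365). Adamts4 and Adamts1, which cleave proteoglycans, rose by 3.63 ± 0.36 (adjusted p = 0.000561) and 2.30 ± 0.22 (adjusted p = 0.000445). The complement protease gene C1s1 fell by 1.37.

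How much the injured kidneys differed among themselves was read from their SD. Over the 3603 called genes the median SD of the 6 injured kidneys was 0.29, against 0.353 over all genes tested. A call asks for a spread that is small against the difference, so a lower SD among called genes partly follows from the selection. No gene passed limma's F test among the IRI, mimic and control-miRNA groups (0 of 21264, lowest adjusted p = 0.0674), although 7194 genes (33.8%) had an unadjusted p under 0.05 and the count was 0 to 7660 over the other settings. Among called genes 552 (15.3%) had an unadjusted F p under 0.05. The selection lowers this share too, since differences between the injured groups add to the spread that a call is judged against.

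Some of the changed genes stood at nearly the same level in all 6 injured kidneys. Among genes called at least 4-fold without overlap the lowest SD was 0.11, for Pvr, the poliovirus receptor and nectin-like adhesion molecule, with 0.54 and 0.59 in sham and 2.53 to 2.83 after injury (2.16 ± 0.15, adjusted p = 0.00015). Spp1 followed with an SD of 0.12. Tpm4, a cytoskeletal tropomyosin, and Arpc1b, a subunit of the actin-branching Arp2/3 complex, had SDs of 0.12 and 0.13 and rose by 2.31 ± 0.16 (adjusted p = 0.00015) and 2.11 ± 0.15 (adjusted p = 0.000177). Abat, the GABA transaminase, fell from 5.47 and 5.61 to between 3.11 and 3.48 (-2.21 ± 0.16, adjusted p = 0.000177), but another of its probes gave 0.06. Gsx2, a homeobox gene, also had a small SD and fell by 2.85. It was well above background on only 3 of 6 injured arrays, so its SD is not firmly measured. Efcab5, a further even gene, was not well above background in sham and was at least 3.26-fold higher (adjusted p = 0.000404).

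The 8 genes with the widest spread were the fibrinogen chains and 5 genes that fell. Fgb, Fga and Fgg encode the chains of fibrinogen, which liver secretes and injured tubule also makes. Fgb had -2.18 and -1.52 in sham, 5.39 and 5.31 in IRI 30 and IRI 34, 4.87 in control-miRNA 5, 2.83 in control-miRNA 1 and 2.40 and 1.68 in mimic 6 and mimic 7 (5.6 ± 1.03, adjusted p = 0.00783). Fgg kept the same order of kidney groups, with 7.06 and 7.18 in IRI, 6.77 and 5.12 in control-miRNA and 4.62 and 3.36 in mimic kidneys against 1.08 and 1.15 in sham (4.57 ± 0.98, adjusted p = 0.0145), and Fga rose by 3.86 ± 0.99 (adjusted p = 0.0301). The unadjusted F p among the injured groups was 0.00384 for Fgb, 0.00327 for Fgg and 0.00449 for Fga. Every injured kidney stood above sham for these genes, with the IRI kidneys highest and the mimic kidneys lowest.

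Among genes that fell, C8a, a chain of complement C8, had the widest spread (SD 2.04), but it was well above background on only 3 of 6 injured arrays, so that its lowest values and its SD are not firmly measured. It stood at 0.44 and 0.20 in sham, at -6.86 in IRI 30 and -6.75 in control-miRNA 1, and at -1.92 in mimic 7 (-4.79 ± 1.27, adjusted p = 0.0345). Akr1c18, a hydroxysteroid dehydrogenase, ran from -3.56 in IRI 30 to 0.52 in mimic 7 (-4.00 ± 1.15, adjusted p = 0.0455), Sec14l3, a lipid-binding protein, from -4.39 in control-miRNA 1 to -0.24 in control-miRNA 5 (-3.59 ± 1.04, adjusted p = 0.0479), and Ldc1 from -3.44 in IRI 30 to 0.99 in mimic 7 (-4.08 ± 1.00, adjusted p = 0.0247). For these 4 genes mimic 7 and control-miRNA 5 were the injured kidneys nearest to sham. Kcnt1, a sodium-activated potassium channel, fell by 4.25 ± 1.06 (adjusted p = 0.0275), but its probe was well above background on only 3 of 6 injured arrays, which leaves its spread and the order of the kidneys unmeasured, and another of its probes gave 0.27.

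**Figure D3:**
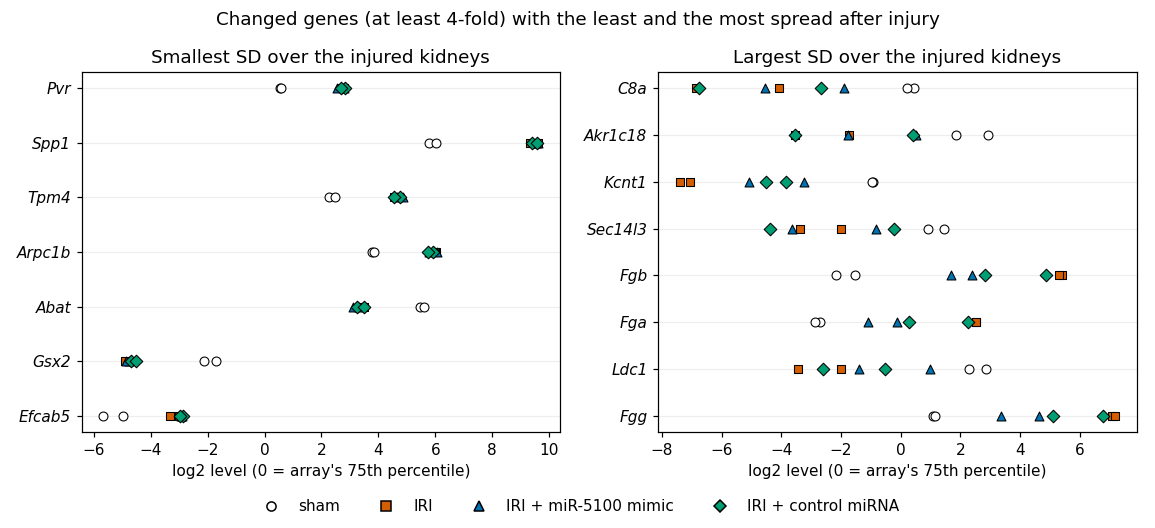
Log2 level in each kidney, 1 point per kidney, of 7 of the 8 genes with the smallest (left) and the 8 with the largest (right) SD over the 6 injured kidneys, among genes called at least 4-fold without overlap; 0 is the array's 75th percentile signal. A reader should see the filled symbols on top of each other for Pvr and Spp1, and spread over several log2 units for C8a (-6.86 to -1.92, well above background on 3 of 6 injured arrays) and Fgb (1.68 to 5.39), with open sham symbols outside the filled ones in every row.

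**Figure D4:**
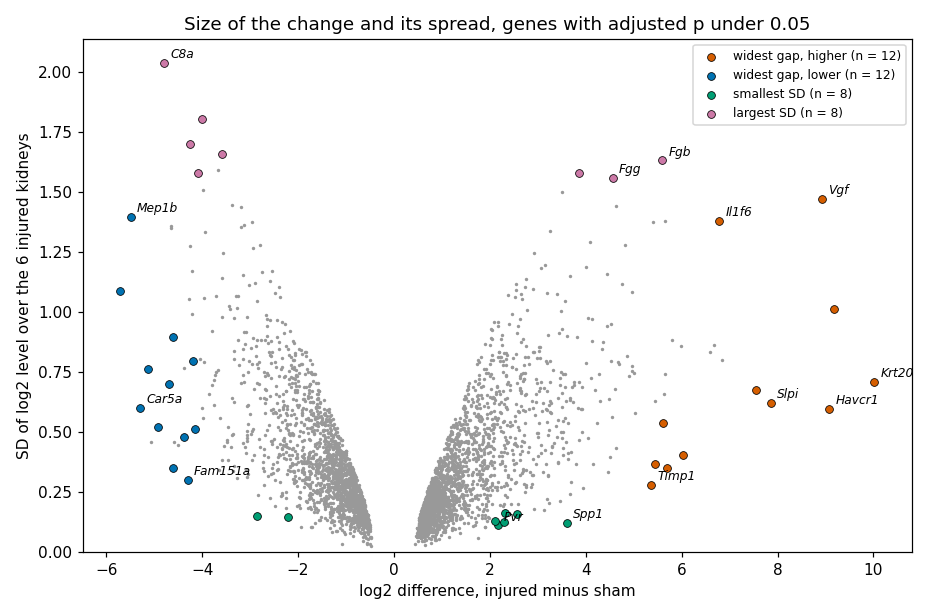
SD of the log2 level over the 6 injured kidneys against the log2 difference, injured minus sham, 1 point for each of the 3603 called genes, with the genes of widest gap and of smallest and largest SD in colour. A reader should see that Krt20 (10.01), Sprr2f (9.17) and Havcr1 (9.08) lie farthest right. Their fitted differences rest on sham signals that were low for Krt20 and not well above background for Sprr2f and Havcr1. Spp1 lies low (SD 0.12), and C8a (2.04) and Fgb (1.63) lie high. The empty wedges along both flanks follow from the test, which passes a small difference only where the spread is small.

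Single kidneys were not equally far from sham. A call with at least a 2-fold difference was made higher for 5.26% of all genes and lower for 5.3%. Of the 1116 of these that were higher without overlap, mimic 7 was the injured kidney nearest to sham in 38.9%, against 6.99% to 17.0% for each of the other 5, and of the 1126 that were lower it was nearest in 40.5%, against 5.33% to 22.3%. Mimic 7 was the farthest from sham in 15.7% of the higher genes, against 7.8% to 24.6% for each of the other 5. For the lower genes it was farthest in 17.5%, against 4.97% to 26.6%. Control-miRNA 5 was the kidney least often farthest, at 7.8% and 4.97%. The median shift of these genes from sham was alike, 1.60 to 1.83 for those higher and -1.43 to -1.78 for those lower, with control-miRNA 5 and mimic 7 at the near end in both. Mimic 7 also had the dimmest array, with a 75th percentile signal of 242 against 308 to 600, and its part in these shares was not tested. By list, mimic 7 had thick ascending limb genes at -0.46 (others -0.88 to -1.34), intercalated cell genes at -0.06 (-0.59 to -1.16) and endothelial genes at 0.52 (-0.51 to -0.06), but proximal tubule enzymes at -1.78, within the range of the others (-1.51 to -2.0).

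**Figure D5:**
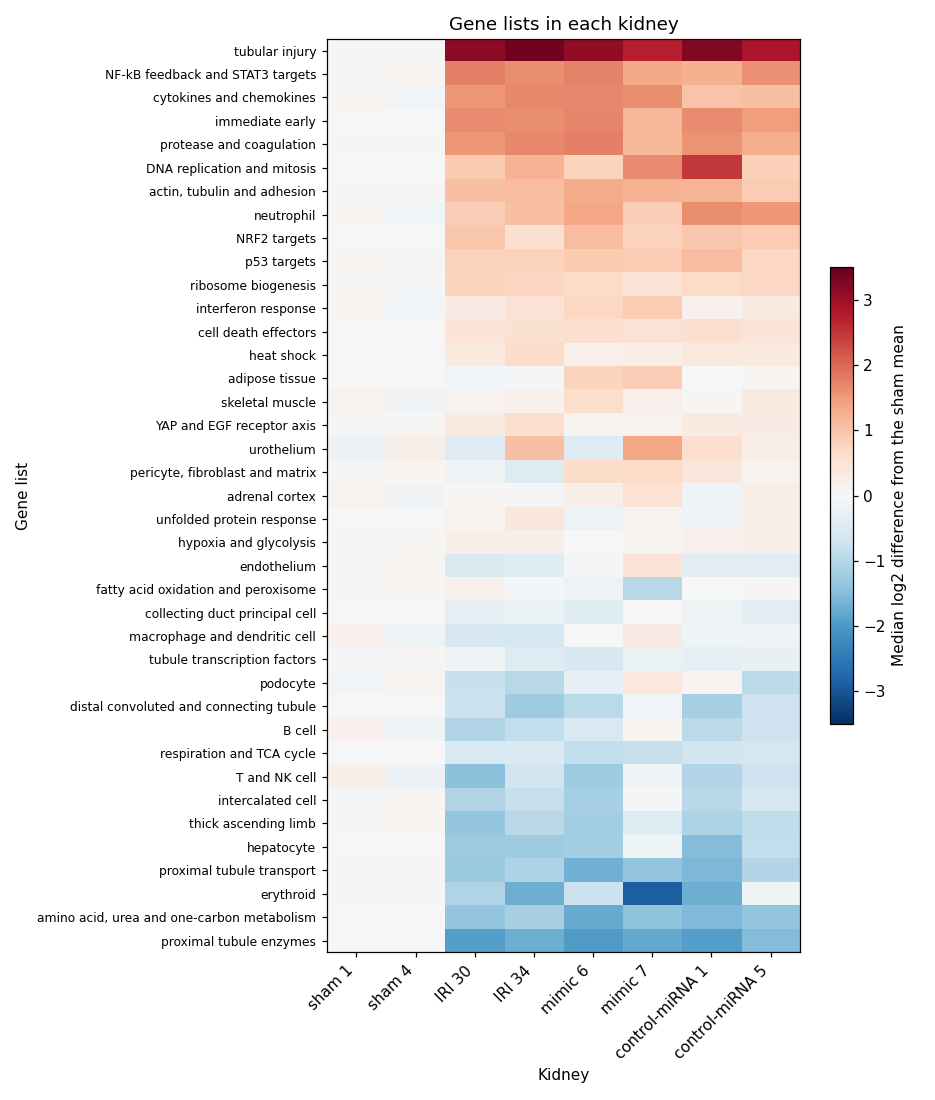
Median log2 difference from the sham mean of each of 39 gene lists (rows) in each of the 8 kidneys (columns), ordered as the lists' medians over the injured kidneys; red is above and blue below sham. A reader should see all 6 injured columns red for tubular injury (2.73 to 3.38) and blue for proximal tubule enzymes (-2.0 to -1.51), the dark cell of DNA replication genes in control-miRNA 1 (2.47), and the pale mimic 7 column in the nephron segments beyond the proximal tubule.

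Markers of tissues next to the kidney were read for carried-over material. Over all genes 9.03% were called higher and 7.91% lower. The summed linear level of 11 measured hepatocyte genes was 128 and 131 in sham and 23.4 to 144 in injured kidneys, with 1 gene higher (Fgb) and 5 lower, and Apoa1, Ahsg, Serpina3k and Cyp3a11 were not among the genes tested. Of 5 adipose genes 1 rose, Cidec, a lipid droplet protein (4.52 ± 0.61, adjusted p = 0.00188), with sums of 5.31 and 6.27 in sham and 6.70 to 11.6 after injury, while Adipoq and Plin1 were not tested. Of 5 urothelial genes 2 rose, the basal keratins Krt14 (3.20 ± 0.69, adjusted p = 0.0149) and Krt5 (2.23 ± 0.53, adjusted p = 0.0216), while the uroplakins Upk1a (-1.22) and Upk3a (0.25) missed the test. Of 4 adrenal genes Hsd3b1 fell, to a level well above background on only 1 of 6 injured arrays, and Star rose (at least 2.04-fold), and Cyp11b1 and Cyp11b2 were not tested. Among 5 muscle genes Pvalb alone passed, which the distal tubule also makes, and of 6 red cell genes Slc4a1 alone, which intercalated cells also make. The part of such material in the results was not tested.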

How the data were processed

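RNA of 8 left kidneys was measured on 8 arrays of 1 Agilent slide. The authors' Agilent scanner files come from Feature Extraction 12.0.3.1 (submitters' processing notes, file headers). Per the file headers the processed signal is an intensity after background subtraction and spatial detrending, without scaling across arrays, and the flags used are 0 or 1 per spot. The authors also deposited, for each probe, a linear ratio in a table of all samples. After log2 and centring per probe, 99.91% of the single values of 56601 probes lay within 0.01 of quantile-normalized scanner values. Column medians were 0.992 to 1.02, so scale and centring are known and direction follows the scanner values. It served as an alternative, and 0 value columns were left unused.

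Control spots were dropped, as were outlier-flagged spots (79 to 127 an array); saturation affected 0 spots. Log2 signals minus the array's 75th percentile were averaged per probe. Of 56605 probes 33767 were named through a RefSeq accession (GRCm38.p6 table), 9866 by a current and 310 by an older symbol, and 12662 kept the file's name. A probe was kept (32218 were) where some group had both arrays well above background, and the brightest stood for its gene. The injured mean against the sham mean, and the F test among the 3 injured groups, used limma 3.58.1 in R 4.3.3 (8.63 and 6.84 degrees of freedom after moderation). The scripts were tested on simulated data.

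Named genes are the 12 widest gaps in each direction, the 8 smallest and 8 largest SDs among called, non-overlapping genes of at least 4-fold, up to 4 genes per list by smallest p, and 19 chosen genes. Clone, predicted and accession names were left out, and a few genes and 1 motif class are not reported here. Other list members, named mostly by their difference alone, were picked after their values were seen. The comparison, the 39 lists and the rules were chosen with earlier results of these data known. Lists are described by counts and medians, without a test. Sums of marker levels are of linear values relative to the array's 75th percentile. All arrays share 1 slide and 1 scan. Slide row 1 holds sham and IRI arrays and row 2 the arrays of injected mice, which leaves row and injection confounded. With the row as a covariate the injured difference therefore equals that of IRI against sham alone. Alternatives were another scaling, background correction, filter, probe rule, spread model, array brightness or slide position as a covariate, each kidney left out, and fewer groups.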

Additional observations from a re-analysis of the deposited data

Results flagged for a closer look

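Of 191 named genes 13 had 1 injured kidney that stood apart from the other 5 by more than Dixon's 95% limit for a group of 6. Chance flags about 1 in 20 groups, and the genes are not independent of each other.

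Mimic 7 was the kidney that stood apart in 9 of the 13. For Krt20 it was at 4.41 and for Lcn2 at 5.85, both below the other injured kidneys and far above sham. For Maff it was at -1.0, also the lowest. For the lower genes Slc4a1 (2.01), Cox7a1 (2.90), a subunit of cytochrome c oxidase, Atp6v1c2 (1.38), a proton pump subunit, Cd79b (-2.06) and Cr2 (-1.53), both of B cells, mimic 7 was the highest injured kidney and the nearest to sham. For Trp63 it was at 4.33, above both sham kidneys.

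IRI 34 stood apart for Areg (-3.68) and Efcab5 (-3.31), as the lowest of the injured kidneys in both. Control-miRNA 1 stood apart for Icam1 (2.65) and for the muscle gene Tnnt3 (-3.44), again as the lowest.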

How the results depend on the processing

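The 3603 genes called in injured against sham became 2235 with no filter on dim probes, 7187 with array brightness as a covariate, 2154 with the slide row as a covariate, 5483 as the mean of the 4-group fit, 6785 in IRI against sham alone, 7490 without the mimic kidneys and 2247 where a 2-fold difference was also asked. It was 836 to 5768 with 1 kidney left out, the extremes being without sham 4 and without mimic 7. Median scaling, normexp, the all-array filter, the mean of probes, the trended robust fit and the slide column kept it within 1.5 times. So did quantile normalization and the deposited ratios, which hold nearly the same values as each other. The slide column moved the median of all genes to 0.11, and list medians near 0 should be read against that shift. Among the 3 injured groups 0 genes passed, but 2793 did with median scaling, 7660 with normexp, 1845 with probes above background on all arrays and 1828 with the trended robust fit. With 1 kidney left out the count was 0 to 5152, the highest without mimic 6. The cause of these moves was not tested. None of the 158 called among the 191 named genes changed sign in any setting run, but 63 and 65 of them lost their call without sham 1 and without sham 4. Over all settings 5 to 30 of 38 proximal transport, 9 to 28 of 34 proximal enzyme, 0 to 13 of 19 thick ascending limb, 0 to 15 of 20 podocyte, 0 to 10 of 21 endothelial, 0 to 11 of 21 stromal, 0 to 29 of 38 respiration and 1 to 26 of 34 replication genes were called. The count over all genes also moved over these settings, as given above, and reached 7490 without the mimic kidneys. The ranges are therefore not read as results about single lists. No paired analysis was possible because the sham and injured kidneys are left kidneys of different mice. Fits without sham 1 or sham 4 have 1 sham kidney, which is assumed to vary like the injured ones.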
